A study of Mus musculus with 12 samples.

Results

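The genes described here are 8 early response genes of the EGR, NAB and IER families: Egr1, Egr2, Egr3, Nab1, Nab2, Ier2, Ier3 and Ier5. They were matched by mouse symbol, and all 8 were listed both among the 30803 genes of the WT and GSH libraries and among the 17558 genes of the Ctrl and Cas9 libraries. The set was chosen by measured values, namely that the FPKM of Egr1 and Ier2 was higher in GSH and that of Egr3 lower in Cas9, so the differences of these 8 genes between those groups are given as a description, without a test. The samples carry the cell line label 4T1, which is a BALB/c mouse mammary carcinoma line, their RNA was sequenced as mRNA profiles, and every group carries the treatment label culture. The groups differ by a genotype label only, which reads WT, GSH, Ctrl or Cas9. The labels do not expand GSH, name no gene targeted with Cas9, and do not say whether a group is 1 clone or whether its replicates came from separate cultures. GSH is compared with WT, and Cas9 with Ctrl, as the submitters paired them. Values were used for 3 WT, 3 GSH, 3 Cas9 libraries and 1 Ctrl library (Ctrl 3) of the 12 samples labelled, and Ctrl 1 and Ctrl 2 were not analysed here.

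EGR proteins are zinc-finger transcription factors that bind GC-rich sites, and their genes are switched on within minutes of growth factor or stress signals. The signal runs through a kinase cascade that ends in ERK to the transcription factor SRF and its ELK partners, which act at a sequence called the CArG box. NAB1 and NAB2 are corepressors that bind EGR proteins and recruit the NuRD chromatin remodelling complex through CHD4, and EGR proteins in turn activate NAB genes, which makes a feedback loop. IER2 and IER5 are related nuclear proteins that bind the phosphatase PP2A, and IER5 helps activate the heat shock factor HSF1. IER3 is a short-lived protein linked to ERK signalling and cell survival and is not related to IER2 in sequence. In carcinoma cells these transcripts are widely used as readouts of recent signalling.

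Promoter windows with letter matches to an EGR motif or a CArG box are shown first, to show what such motifs look like near these genes. RefSeq windows (build GRCm38.p6) of 250 bases before the start site were held for 5 of the 8 genes, namely Egr2 (5 start sites), Nab1, Nab2, Ier3 and Ier5, and no window is shown for Egr1, Egr3 and Ier2. The first sequence is chr1:52500449-52500698 on the minus strand, before the start of Nab1. Its capitals mark the EGR consensus GCGTGGGCG and the close variant GCGGGGGCG on either strand. The others lie on the plus strand before 2 start sites of Egr2, at chr10:67537316-67537565 and chr10:67537619-67537868, and their capitals mark a CArG box. All are written 5′ to 3′ in the direction of the gene.
Nab1: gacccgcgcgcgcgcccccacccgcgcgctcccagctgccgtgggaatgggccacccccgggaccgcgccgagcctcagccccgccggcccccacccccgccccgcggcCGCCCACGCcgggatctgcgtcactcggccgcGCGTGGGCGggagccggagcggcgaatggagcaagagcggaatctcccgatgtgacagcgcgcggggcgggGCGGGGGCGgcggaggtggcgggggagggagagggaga
Egr2 upstream start: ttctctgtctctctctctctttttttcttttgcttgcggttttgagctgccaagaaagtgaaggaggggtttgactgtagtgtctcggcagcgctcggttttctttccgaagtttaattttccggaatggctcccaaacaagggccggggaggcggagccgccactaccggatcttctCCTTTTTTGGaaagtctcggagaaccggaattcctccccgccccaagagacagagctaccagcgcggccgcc
Egr2 downstream start: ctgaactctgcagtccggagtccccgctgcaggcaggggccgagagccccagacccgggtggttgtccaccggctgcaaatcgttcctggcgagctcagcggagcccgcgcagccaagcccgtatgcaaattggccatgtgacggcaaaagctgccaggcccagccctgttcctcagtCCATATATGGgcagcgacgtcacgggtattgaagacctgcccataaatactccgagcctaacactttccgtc

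The Nab1 window held GCGTGGGCG at 2 places, which start 141 bases before the start site (minus strand) and 109 bases before it (plus strand), and GCGGGGGCG at 38 bases before it. Both strands were searched, and the sites do not overlap. Of 32851 windows of the same length, 0.536% held GCGTGGGCG and 2.57% held GCGGGGGCG. The Nab1 window is 80.8% G and C, and these shares are over windows of any G and C content. Each shown Egr2 window held a CArG box that starts 72 bases before its start site, and 1.47% of all windows held one. The downstream box is shared by the windows of 3 Egr2 start sites, which overlap, and 4 of the 5 Egr2 windows held a CArG box. The downstream Egr2 window also held TGACG, the core of a cyclic AMP response element, 111 bases (plus strand) and 55 bases (minus strand) before the start. TGACG occurred in 17.8% of all windows, and the full element TGACGTCA (1.55% of windows) was not in any window of these genes. The windows of Nab2, Ier3 and Ier5 held neither EGR form, no CArG box and no TGACG. The ETS site CCGGAAG, found in 6.91% of all windows, was in none of these genes' windows. The same held for the AP-1 site TGAGTCA (4.46% of windows) and for the TATA box form TATAAA (12.4%). A match to the NF-kB motif lay 92 bases before the start of Ier3, and 7.25% of all windows held one, as did those of Nab1 and of 1 Egr2 start site. A match describes letters and not binding.

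Expression is given as FPKM (fragments scaled by transcript length and library size), and the values move in whole-read steps from which the reads behind each value were recovered. The steps fix the reads of a gene only up to a factor common to its libraries. The smallest factor that gave a whole gene length was taken, or a multiple that met the annotated length. Library totals were 18531444 to 30168737 reads in WT and GSH and 33152215 to 39201544 in Ctrl and Cas9. RPM below means recovered reads scaled to 1000000 reads of that total. The 2 sets of libraries were normalised as separate tables with other gene lengths, so tests were made within a table only. WT 3, GSH 2 and GSH 3 stood apart by odorant-binding and major urinary protein genes, whose 7 listed genes summed to 135 to 340 RPM there and to 1.06 to 11.04 RPM in WT 1, WT 2 and GSH 1. The 7 epithelial markers summed to 3997 to 4230 RPM in WT and GSH and to 3149 to 5063 RPM in Ctrl and Cas9. Markers of other cells were higher in Ctrl and Cas9 than in WT and GSH, although all carry the culture label: the 3 pan-leukocyte markers summed to 2.28 to 5.07 RPM and to 371 to 689 RPM, and the 4 macrophage markers to 29.3 to 33.4 RPM and to 698 to 1532 RPM. The 4 fibroblast markers summed to 5.69 to 81.5 RPM in WT, to 66.8 to 153 RPM in GSH and to 1716 to 6002 RPM in Ctrl and Cas9. The 3 T cell markers were all at 0 in WT 1, WT 2 and GSH 1 and summed to at most 0.216 RPM in WT and GSH. B cell markers stayed at 1.23 RPM or less in every library. In bulk RNA of such mixed samples, fewer cells of a type and less RNA per cell cannot be told apart.

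Among the EGR factors, Egr1 was the leading transcript in WT and GSH and the one that differed most between GSH and WT. Egr1 (ENSMUSG00000038418, chromosome 18) stood at 2.19, 2.55 and 2.19 FPKM in WT 1 to 3 and at 8.53, 10.1 and 13.4 FPKM in GSH 1 to 3. Every GSH library lay above every WT library. The mean was 2.31 ± 0.205 FPKM in WT and 10.7 ± 2.49 FPKM in GSH (SD, n = 3 each), a ratio of 4.62. On the log2(FPKM + 1) scale the difference was 1.80 (SE 0.14), and it was 1.64 without GSH 3 and 2.16 with voom on recovered reads. Here and below, SE is the moderated standard error of the limma fit. It draws on the spread of all tested genes and is not the gene's own error. The reads behind these values were 211 to 232 in WT and 854 to 1154 in GSH.

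The coefficient of variation of Egr1 was 23.3% over the 3 GSH libraries, and counting alone would give 3.10%. Of the 12283 genes tested, 94.2% varied less among the GSH libraries, and their median was 4.51%. In WT the coefficient for Egr1 was 8.86%, near the 6.75% from counting.

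Egr2 and Egr3, the relatives of Egr1 with roles in nerve and lymphocyte differentiation, were close to the floor in WT and GSH. Both had a mean under 1 FPKM there and entered no test. Egr2 (chromosome 10) had 4, 4 and 9 reads in WT 1 to 3 and 16, 9 and 14 reads in GSH 1 to 3, or 0.0536 to 0.123 and 0.14 to 0.222 FPKM. Its lowest GSH value in FPKM lay just above its highest WT value, at read numbers where counting alone gives a coefficient of variation of 42.0% in WT. Egr3 (chromosome 14) had 40, 31 and 32 reads in WT and 38, 43 and 39 reads in GSH, or 0.339 to 0.414 and 0.286 to 0.517 FPKM, and the groups overlapped. Egr1 made up 82.4 to 86.3% of the summed Egr1, Egr2 and Egr3 FPKM in WT and 93.9 to 95.1% in GSH. Egr4, the remaining family gene, had 1 to 4 reads in each WT and GSH library.

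In the Ctrl and Cas9 libraries all of Egr1, Egr2 and Egr3 were above 1 FPKM. Egr3, one of the genes that chose the set, stood at 3.88 FPKM in Ctrl 3 and at 1.65, 1.58 and 2.37 FPKM in Cas9 1 to 3, from 314 reads and 108 to 170 reads. All 3 Cas9 values lay below the Ctrl value, and the ratio of the Cas9 mean (1.87 ± 0.440 FPKM, SD, n = 3) to Ctrl was 0.482. The log2 difference was -0.78 (SE 0.24), and it was -1.07 with voom on recovered reads. Egr2 stood at 5.67 FPKM in Ctrl 3 and at 1.95, 3.91 and 4.71 FPKM in Cas9 1 to 3. All Cas9 libraries again lay below Ctrl 3, but Cas9 1 decided the size: the log2 difference was -0.61 (SE 0.41) over all libraries, -0.33 without Cas9 1 and -0.81 without Cas9 3. Egr1 stood at 11.6 FPKM in Ctrl 3 and at 7.88, 11.9 and 12.9 FPKM in Cas9 1 to 3. Ctrl 3 fell within the Cas9 range, and the log2 difference of -0.11 (SE 0.29) was 0.09 without Cas9 1.

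**Figure D1:**
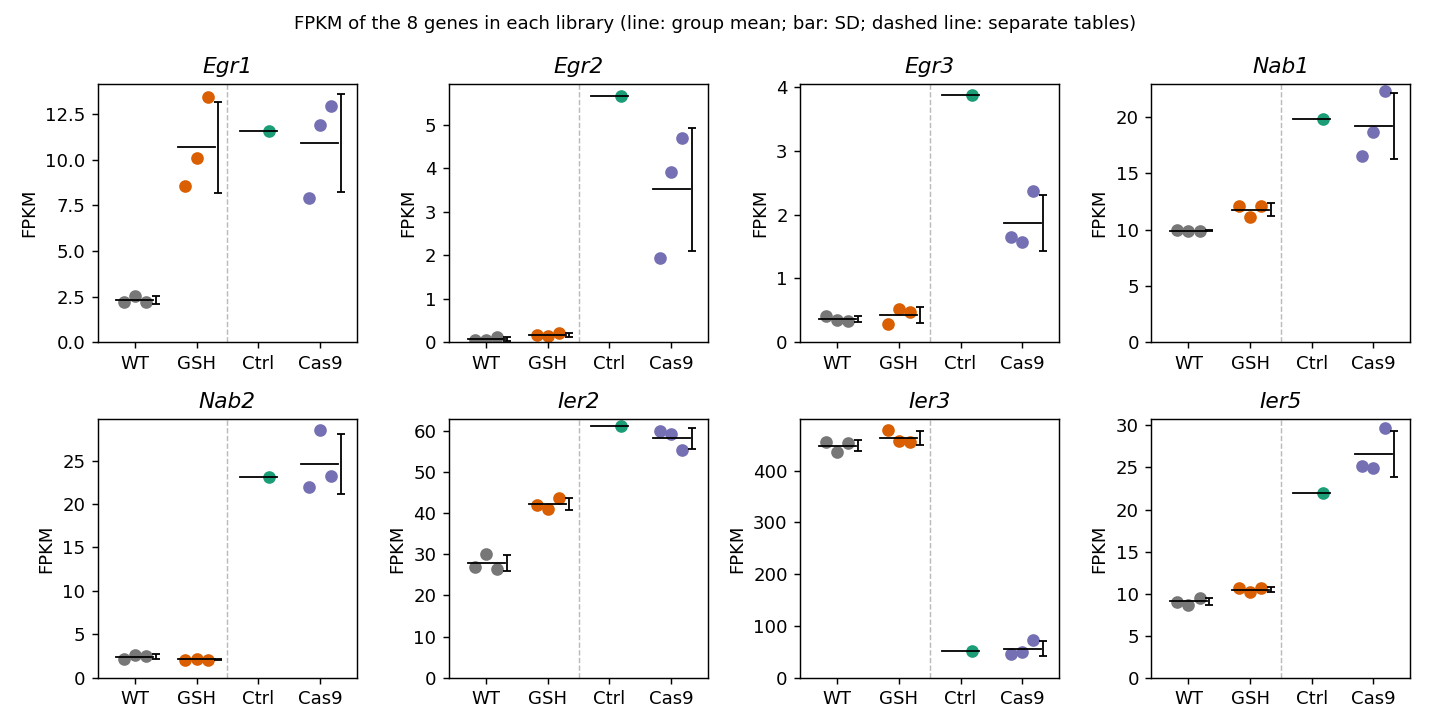
FPKM (vertical axes, each from 0) of the 8 genes in WT, GSH, Ctrl and Cas9 libraries; points are libraries, horizontal lines group means and bars the SD, and the dashed line parts tables that were normalised separately. The 3 GSH libraries sit between 8.53 and 13.4 FPKM for Egr1, above WT at 2.19 to 2.55 FPKM, and Ier3 is at 436 to 478 FPKM in WT and GSH and at 45.7 to 72.1 FPKM in Ctrl and Cas9.

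Of the corepressor genes, Nab1 lay higher in every GSH library than in WT, and Nab2 slightly lower. Nab1 (chromosome 1) stood at 9.99, 9.88 and 9.87 FPKM in WT 1 to 3 and at 12.1, 11.1 and 12.1 FPKM in GSH 1 to 3. The GSH libraries lay above the WT libraries by a ratio of means of 1.18, with a log2 difference of 0.22 (SE 0.04). Over the alternatives run, from 0.19 to 0.26, the difference stayed above 0. The 3 WT values of Nab1 differed by less than counting gives, with a coefficient of variation of 0.661% against 3.40%.

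Nab2 (chromosome 10), the other EGR corepressor gene, stood at 2.17, 2.63 and 2.50 FPKM in WT 1 to 3 and at 2.06, 2.12 and 2.09 FPKM in GSH 1 to 3. The GSH libraries lay just below the WT libraries, from 114 to 183 reads in GSH and 140 to 158 in WT, and the log2 difference of -0.15 (SE 0.06) was between -0.21 and -0.11 in the alternatives. In the GENCODE M21 annotation, exons of Nab2 share 1050 bases with Gm16229, 151 with Nemp1 and 40 with Stat6, all on the other strand. The counting is not stated to use strand, so reads from those bases cannot be told apart. Nemp1, a nuclear envelope protein gene, stood at 10.4 to 10.8 FPKM in WT and 9.07 to 9.28 FPKM in GSH, and its part in the Nab2 value was not tested. Stat6, a cytokine-responsive transcription factor gene, stood at 26.1 to 27.9 FPKM in WT and 26.6 to 28.0 FPKM in GSH. No level is given for Gm16229, which shares 1050 of the 2941 exonic bases of Nab2. Its part in the Nab2 value was not tested.

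In Cas9, neither NAB gene left the range around Ctrl 3. Nab1 stood at 19.8 FPKM in Ctrl 3 and at 16.5, 18.7 and 22.3 FPKM in Cas9 1 to 3, and Nab2 at 23.1 FPKM in Ctrl 3 and at 22.0, 28.5 and 23.3 FPKM in Cas9 1 to 3. Their log2 differences were -0.06 (SE 0.20) and 0.08 (SE 0.19).

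EGR and NAB transcripts were also set against each other within a library, and the ratios are compared within each table only. Summed Egr1, Egr2 and Egr3 FPKM was 0.219, 0.236 and 0.215 of summed Nab1 and Nab2 FPKM in WT 1 to 3 and 0.633, 0.813 and 0.997 of it in GSH 1 to 3. The ratio was 0.493 in Ctrl 3 and 0.298, 0.369 and 0.439 in Cas9 1 to 3, below Ctrl 3 in each Cas9 library. Between the tables this FPKM ratio is not comparable, since gene lengths differ, for Egr1 from 4484 to 3072 bases and for Nab1 from 4100 to 5164. The EGR to NAB ratio was not computed in RPM. Egr1 and Egr3, which chose the set, enter these sums, and Egr2 exceeded Egr3 in each Ctrl and Cas9 library. Nab1 exceeded Nab2 by 3.76 to 4.61 times in WT and by 5.22 to 5.87 times in GSH. In Ctrl 3 and Cas9 the same ratio was 0.859 and 0.656 to 0.958. This order rests on the gene lengths of each table: in RPM, with no length, Nab1 exceeded Nab2 in every library, by 5.24 to 8.18 times in WT and GSH and by 1.32 to 1.92 times in Ctrl and Cas9.

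**Figure D2:**
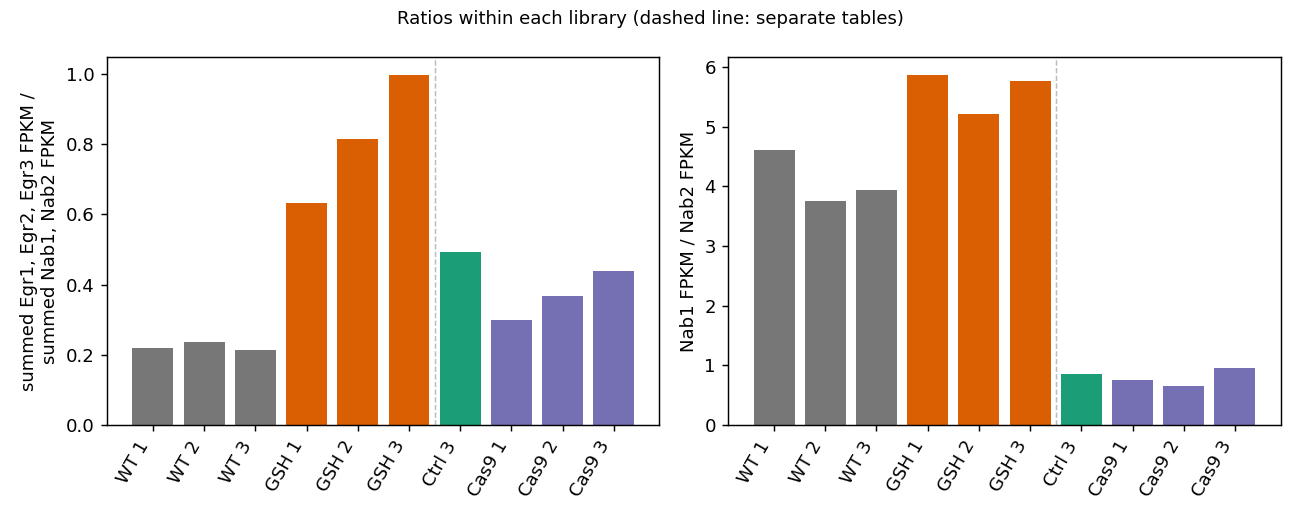
Ratio of summed Egr to summed Nab FPKM (left) and of Nab1 to Nab2 FPKM (right) in each library; bars are single libraries from 0, coloured by group, and the dashed line parts separate tables. The Egr to Nab ratio is 0.215 to 0.236 in WT and 0.633 to 0.997 in GSH, and the Nab1 to Nab2 ratio is above 3 in each WT and GSH library and under 1 in each Ctrl and Cas9 library, where by RPM it is 1.32 to 1.92.

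Of the IER genes, Ier2 carried the largest difference in GSH. Ier2 (chromosome 8), which also chose the set, stood at 26.9, 30.1 and 26.5 FPKM in WT 1 to 3 and at 41.9, 41.02 and 43.8 FPKM in GSH 1 to 3. The groups did not overlap, and the ratio of means was 1.52 with a log2 difference of 0.59 (SE 0.05). Unlike Egr1, Ier2 was close among the GSH libraries, with a coefficient of variation of 3.36% against 2.63% from counting. Ier5 (chromosome 1), the partner of HSF1, stood at 8.996, 8.69 and 9.51 FPKM in WT 1 to 3 and at 10.7, 10.2 and 10.6 FPKM in GSH 1 to 3. All GSH libraries lay above WT, by a ratio of means of 1.16 and a log2 difference of 0.19 (SE 0.04). Ier5l, the close relative of Ier5, stood at 5.52 to 6.43 FPKM in WT and 5.55 to 6.04 FPKM in GSH, with overlap.

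Ier3 (chromosome 17) was the most abundant of the 8 genes in WT and GSH and the one that differed least in ratio between GSH and WT among those tested. It stood at 456, 436 and 454 FPKM in WT 1 to 3 and at 478, 457 and 455 FPKM in GSH 1 to 3, from 9538 to 16315 reads a library. The groups overlapped, and the log2 difference was 0.05 (SE 0.04).

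In Cas9, Ier2 stood at 60.02, 59.4 and 55.3 FPKM in Cas9 1 to 3 beside 61.2 FPKM in Ctrl 3, a log2 difference of -0.07 (SE 0.13). Its coefficient of variation over the Cas9 libraries was 4.399%, and 11.6% of the 11407 genes tested varied less. Ier3 stood at 45.7, 50.6 and 72.1 FPKM in Cas9 1 to 3 beside 51.7 FPKM in Ctrl 3, with Cas9 3 apart from the others. Ier5 stood at 25.1, 24.9 and 29.7 FPKM beside 22.0 FPKM, above Ctrl 3 in each Cas9 library, with a log2 difference of 0.26 (SE 0.16). Ier5l was also above Ctrl 3 (37.4 FPKM) in each Cas9 library, at 45.6 to 49.0 FPKM.

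Read across the set, 6 of the 8 genes passed the minimum of 1 FPKM in WT and GSH and all 8 did in Ctrl and Cas9. No limma call is given for them. In GSH against WT, the groups did not overlap for 4 of the 6 upwards and for 1, Nab2, downwards, as for 29% and 23.5% of all tested genes (52.5% in either direction). The median log2 difference of the 6 was 0.21, against 0.02 over all tested genes. In Cas9 against Ctrl, limma called 0% of the 11407 genes tested, with 210 genes at an unadjusted p under 0.05 and 0 genes called by voom. With 1 Ctrl library, 3 genes (Egr2, Egr3 and Ier2) lay below Ctrl 3 in every Cas9 library and 1, Ier5, above it, as did 22.5% and 20.1% of all tested genes (42.6% in either direction). Since these contrasts chose the set, nothing is read from the counts.

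**Figure D3:**
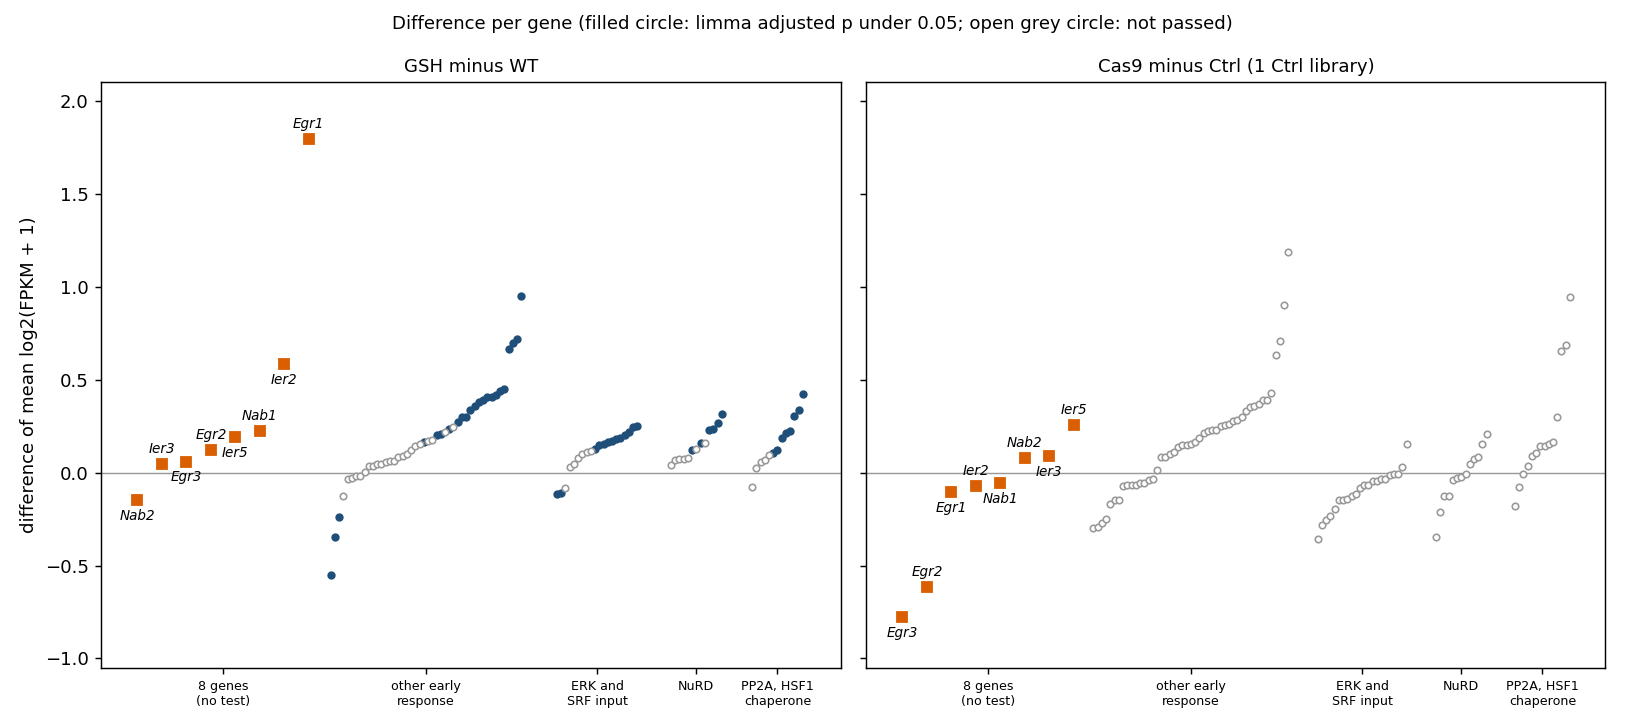
Difference of mean log2(FPKM + 1) (vertical axis) for each gene, GSH minus WT on the left and Cas9 minus Ctrl on the right; squares are the 8 genes, without a test, and circles the genes of 4 other lists, filled where the limma adjusted p is under 0.05 and open grey otherwise. Egr1 (1.80) and Ier2 (0.59) lie highest of the 8 on the left, Egr3 (-0.78) and Egr2 (-0.61) lowest on the right, and no circle is filled on the right.

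Per length, the order of the 8 genes in WT ran from Ier3 (449 FPKM) over Ier2 (27.8), Nab1 (9.91), Ier5 (9.07), Nab2 (2.43), Egr1 (2.31) and Egr3 (0.366) to Egr2 (0.0784), and of the neighbours only Nab2 and Egr1 overlapped. In GSH, Egr1 (10.7 FPKM) had moved between Nab1 (11.7) and Ier5 (10.5) and overlapped both. In Cas9, Ier2 (58.2 FPKM) and Ier3 (56.1) overlapped at the top, followed by Ier5 (26.6), Nab2 (24.6) and Nab1 (19.2), of which Ier5 overlapped Nab2 and Nab2 overlapped Nab1. Egr1 (10.9 FPKM) came next, and Egr2 (3.52) and Egr3 (1.87) overlapped at the bottom. Ctrl 3 differed from the order of the Cas9 means only in Nab2 (23.1 FPKM), which stood ahead of Ier5 (22.0).

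Between the tables the genes stood at other levels, which are set side by side only, as the tables were normalised separately. The gene lengths implied by the values differ, for Egr3 from 4406 bases in the WT and GSH table to 2067 in the other and for Egr1 from 4484 to 3072, so RPM is used here. Of the 8 genes, 6 were higher in each Ctrl and Cas9 library than in any WT or GSH library, 1 was lower and 1 overlapped. Of 11678 genes matched by symbol with a mean of 1 FPKM or more in either table, 45.8% were higher and 32.2% lower in the same way. Egr2 stood at 0.182 to 0.755 RPM in WT and GSH and at 7.30 to 21.2 RPM in Ctrl and Cas9, the widest gap. Nab2 stood at 6.07 to 7.73 RPM and at 56.7 to 73.3 RPM. Ier3 went the other way, from 493 to 541 RPM in WT and GSH to 49.8 to 78.6 RPM in Ctrl and Cas9. Egr1, at 24.2 to 39.8 RPM in Ctrl and Cas9, lay above WT (9.84 to 11.4 RPM) but reached into the GSH range (38.3 to 60.1 RPM). The leukocyte, macrophage and fibroblast marker sums given above differed between the same libraries, and their part in these levels was not tested.

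Within the Cas9 group, Cas9 3 had the highest value of 6 of them (Egr1, Egr2, Egr3, Nab1, Ier3 and Ier5) and Cas9 1 the lowest of 5 (Egr1, Egr2, Nab1, Nab2 and Ier3). Of all 11407 genes tested, 38.7% were highest of the Cas9 libraries in Cas9 3 and 30.2% lowest in Cas9 1. Egr2 varied most, with a coefficient of variation of 40.3% against 4.70% from counting, and 91.9% of tested genes varied less. The markers moved over the same libraries. The epithelial sum was 3149 RPM in Cas9 1, 4017 RPM in Cas9 2 and 5063 RPM in Cas9 3, beside 3927 RPM in Ctrl 3. Its genes did not move alike: Krt14 stood at 360 FPKM in Cas9 3 beside 74.7 FPKM in Ctrl 3. Cldn4 alone was lower in Cas9 3 than in Ctrl 3, at 188 beside 200 FPKM. The macrophage sum was 1432, 1361 and 698 RPM in Cas9 1 to 3 and 1532 RPM in Ctrl 3, and the neutrophil sum 145, 127 and 369 RPM beside 107 RPM. Of the neutrophil genes, S100a8 and S100a9 stood at 239 and 425 FPKM in Cas9 3 beside 46.3 and 80.7 FPKM in Ctrl 3. The other, Csf3r, stood at 13.1 beside 11.6 FPKM. The 3 T cell markers summed to 26.97, 30.3 and 19.1 RPM in Cas9 1 to 3 and to 11.3 RPM in Ctrl 3. The fibroblast sum was 1861, 6002 and 1716 RPM in Cas9 1 to 3 and 3920 RPM in Ctrl 3. The part of cell content in the spread of the 8 genes was not tested.

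**Figure D4:**
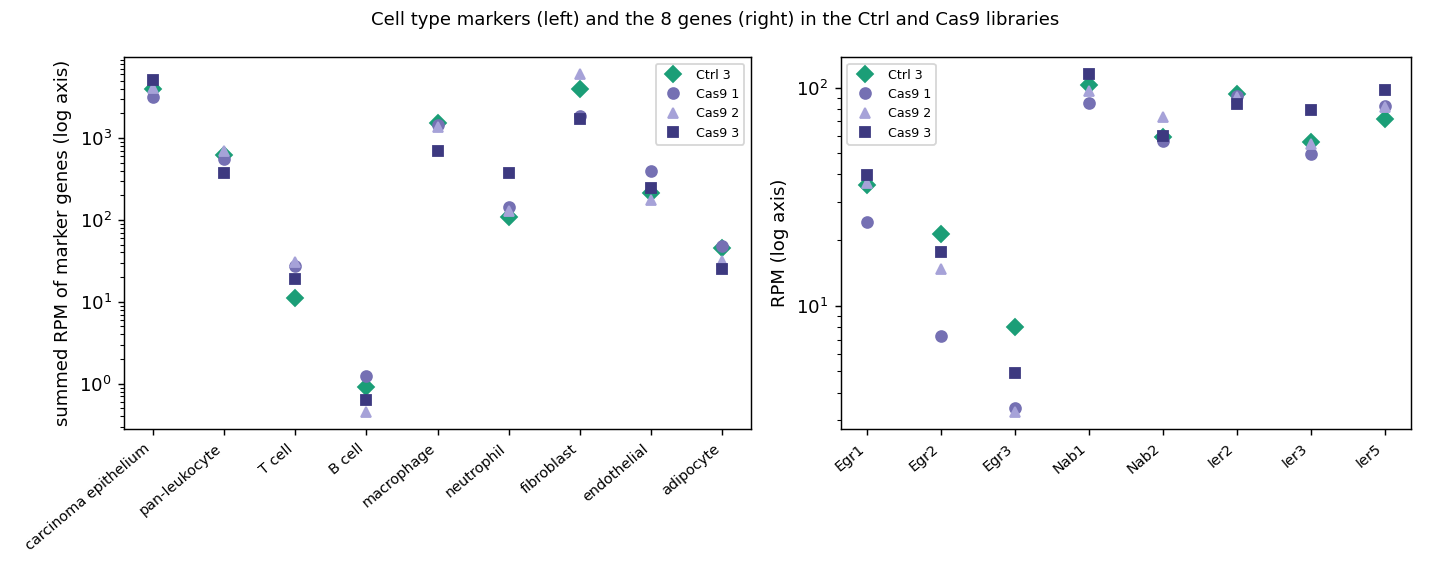
Summed RPM of the marker genes of 9 cell types (left) and RPM of the 8 genes (right) in Ctrl 3 and Cas9 1 to 3; both vertical axes are logarithmic and each point is 1 library. In Ctrl 3 the macrophage sum is the highest of the 4 (1532 RPM) and the T cell sum the lowest (11.3 RPM), and Cas9 3 has the highest epithelial sum (5063 RPM) and the highest Egr1 of the 4 (39.8 RPM).

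The rest of the pathway was followed through 4 lists that hold none of the 8 genes. Among other early response genes, more were higher than lower in GSH. Of 50 listed, 46 were tested, 20 rose, 3 fell and 23 did not pass, with a median log2 difference of 0.17 against 0.02 over all genes, where 37% of genes were called, 20.6% of genes rose and 16.4% fell. All 4 lists were drawn up with earlier results of these libraries known, and their shares called are no independent evidence. Klf6, a zinc-finger factor gene, stood at 28.7 ± 0.653 FPKM in WT and rose to 47.3 ± 2.26 FPKM in GSH (SD, n = 3 each; limma adjusted p = 0.0012). Rhob, a small GTPase of endosomes, rose from 32.3 ± 1.03 to 63.5 ± 5.03 FPKM (limma adjusted p = 0.00123). Csrnp1, a nuclear protein gene, rose from 4.44 ± 0.0448 to 6.43 ± 0.189 FPKM (limma adjusted p = 0.00147), and Dusp5, a nuclear phosphatase of ERK, from 13.5 ± 0.144 to 18.6 ± 0.692 FPKM (limma adjusted p = 0.00152). The genes that fell, named after their values were seen, were Gadd45b, a stress sensor, from 43.6 to 29.5 FPKM, Klf10 from 12.4 to 9.58 FPKM and the orphan nuclear receptor gene Nr4a1 from 7.98 to 6.60 FPKM. Of the genes that rose, Plk2 failed in 6 alternatives (highest limma adjusted p = 0.075), Fos in 4 (0.0664) and Dusp1 in 2 (0.0507). The other 20 of the 23 calls passed under every alternative. In Cas9 against Ctrl, 0 of 47 tested passed in limma and 4 had an unadjusted p under 0.05.

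Among the kinases and factors that feed SRF, 20 of 22 genes were tested in GSH against WT, and 11 rose, 2 fell and 7 did not pass, with a median log2 difference of 0.14. The share called was 65%, against 37% of all genes tested. Mapk3, which encodes ERK1, rose from 12.7 ± 0.487 to 15.4 ± 0.125 FPKM (mean ± SD, n = 3 each; limma adjusted p = 0.0034). Map2k2, a MEK gene, rose from 17.7 ± 0.344 to 20.3 ± 0.0726 FPKM (limma adjusted p = 0.00391). These are transcript levels and not kinase activity. The genes that fell, named after their values were seen, were Elk4, a partner of SRF, from 7.57 to 6.92 FPKM and the kinase gene Araf from 26.7 to 24.6 FPKM. Neither call was stable: Elk4 failed in 9 alternatives (highest limma adjusted p = 0.0794) and Araf in 7 (0.0957). Of the genes that rose, Mrtfa failed in 11 (0.118), Mrtfb in 7 (0.0799) and Creb1 in 1 (0.0526). The other 8 of the 13 calls passed under every alternative. Without GSH 3 the list had 8 calls in place of 13. In Cas9 against Ctrl, 0 of 22 tested passed in limma, with 0 at an unadjusted p under 0.05.

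Of the 13 NuRD genes, the complex that NAB proteins recruit, 6 rose, 0 fell and 7 did not pass in GSH against WT in limma (9 at an unadjusted p under 0.05), with a median log2 difference of 0.13. The share called was 46.2%, against 37% of all genes tested. The scaffold gene Gatad2a rose from 24.9 ± 0.849 to 30.3 ± 0.491 FPKM, and the histone chaperone genes Rbbp7 and Rbbp4 from 62.8 ± 0.526 to 73.9 ± 2.34 FPKM and, for the latter, 14.9 ± 0.388 to 17.7 ± 0.439 FPKM (mean ± SD, n = 3 each). Mta3 rose from 5.42 ± 0.407 to 6.98 ± 0.265 FPKM, and the limma adjusted p of these genes was 0.00261, 0.00331, 0.00365 and 0.00683. Chd4, through which NAB proteins recruit the complex, rose from 52.6 ± 2.04 to 57.2 ± 1.32 FPKM (limma adjusted p = 0.0423). The call of Chd4 was not stable and failed in 9 alternatives (highest limma adjusted p = 0.132), and that of Hdac1 failed in 1. In Cas9 against Ctrl, 0 of 13 passed in limma, with 0 at an unadjusted p under 0.05.

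The PP2A and HSF1 chaperone list held subunit genes of PP2A, which IER2 and IER5 bind, together with Hsf1 and chaperone genes. Of its 14 genes, 13 were tested in GSH against WT. In limma 8 rose, 0 fell and 5 did not pass (9 at an unadjusted p under 0.05), with a median log2 difference of 0.12. The share called was 61.5%, against 37% of all genes tested. Those with the smallest p were all PP2A genes. The scaffold gene Ppp2r1a rose from 65.4 ± 3.05 to 87.8 ± 2.95 FPKM (limma adjusted p = 0.00196), and the catalytic genes Ppp2ca and Ppp2cb from 20.2 ± 0.756 to 25.2 ± 0.375 FPKM and, for the latter, 62.9 ± 4.92 to 79.6 ± 1.69 FPKM (mean ± SD, n = 3 each; limma adjusted p = 0.00224 and 0.00582). The regulatory gene Ppp2r5c rose from 12.3 ± 0.452 to 14.2 ± 0.383 FPKM (limma adjusted p = 0.0103). The regulatory genes Ppp2r2a and Ppp2r2d did not pass (limma adjusted p = 0.099 and 0.491). Which PP2A subunits IER2 and IER5 bind was not tested. Hsf1 itself stood at 12.9 ± 0.399 FPKM in WT and 12.2 ± 0.357 FPKM in GSH and did not pass (limma adjusted p = 0.134). Of the chaperone genes, named after their values were seen, Dnajb1, Hsph1 and Bag3 rose (limma adjusted p = 0.0141, 0.0364 and 0.0423). Hspa1b and Hspb1 did not pass (limma adjusted p = 0.533 and 0.66). Not all calls were stable: Bag3 failed in 11 alternatives, Hsph1 in 9 and the PP2A gene Ppp2r1b in 8. This list had 5 calls in place of 8 without WT 2, GSH 1 or GSH 3, with no filter and with median-of-ratios scaling. In Cas9 against Ctrl, 0 of 14 passed in limma, with 0 at an unadjusted p under 0.05.

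The genes whose profiles lay nearest to those of Egr1, Ier2 and Egr3 were found by the root mean square difference of log2(FPKM + 1) values centred on each gene's mean. For Egr1, over the 6 WT and GSH libraries, they were the keratin gene Krt87 (difference 0.27), Rhob (0.44) and the microRNA gene Mir3091 (0.53). Krt87 stood at 0.921 to 1.58 FPKM in WT and 3.77 to 5.71 FPKM in GSH. For Ier2, over the same libraries, they were Rgs16 (0.05), a regulator of G-protein signalling, the AP-1 subunit gene Jun (0.08) and Gfod1 (0.08). The measure is not scaled to a gene's log2 difference between GSH and WT, which was 1.80 for Egr1 and 0.59 for Ier2. Its values are therefore not compared between Egr1 and Ier2. Jun stood at 14.1 to 15.6 FPKM in WT and 23.3 to 26.99 FPKM in GSH. For Egr3, over the 4 Ctrl and Cas9 libraries, they were Dagla (0.08), an enzyme that makes an endocannabinoid, the splicing factor gene Srsf5 (0.09) and the synaptotagmin gene Syt8 (0.11). Dagla stood at 10.95 FPKM in Ctrl 3 and at 5.84 to 7.73 FPKM in Cas9, and Srsf5 at 107 FPKM and at 62.6 to 85.1 FPKM.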

How the data were processed

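RNA sequencing values of 10 libraries were used. The authors deposited 1 value per gene with no unit stated; the deposited values were taken as FPKM from the values themselves, since each gene moves in whole steps set by gene length. Per the submitters' processing notes, Bowtie2 (2.2.3), HISAT2 (2) and HTSeq (0.6.0) were used, with mm8 as build and no roles given. Symbols for the WT and GSH identifiers came from reference tables (30190 of 30803 matched). Whole reads (to within 0.004 read) were recovered for 99.89% of genes above 0 in the Ctrl and Cas9 table and, rounded, 100% in the other. Library totals were read from GENCODE M21 exon lengths, on which 96.19% of genes met in WT and GSH but 2.08% in Ctrl and Cas9, so the latter totals rest on few genes. Groups came from the titles.

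Differences used limma 3.58.1 (R 4.3.3): lmFit and eBayes with a trend on log2(FPKM + 1), group as the only term, Benjamini-Hochberg adjusted at 0.05 over genes with a mean of 1 FPKM or more, two-sided. A count model was planned only for count files. The Cas9 fit takes its spread from 3 Cas9 libraries. The script was tested on simulated data, with the same set spread for every gene and not the spread of these libraries. That test does not show what the Cas9 fit can detect. As separate cultures are not stated, the p-values reflect spread between libraries that may be technical. From each list the 4 genes with the smallest p that passed in GSH against WT were named, and the 2 in Cas9 against Ctrl, of which there were none; some genes so named are not reported here. Likeness named 3 genes each, leaving out predicted, clone-named and mitochondrial genes. The genes and lists were chosen with earlier results of these data known. Promoter sequences are from RefSeq.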

Additional observations from a re-analysis of the deposited data

How the results depend on the processing

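The count of genes called in GSH against WT was 4547, and of the alternatives run only leaving out WT 1 moved it by more than 1.5 times (2998); with each library left out in turn it ran from 2998 to 3671. The ERK and SRF input list had 13 calls, and 8 to 10 with a library left out. The PP2A and HSF1 chaperone list had 8 calls, 5 with no filter, 5 with median-of-ratios scaling and 5 to 7 with a library left out. Of the 50 list genes called, 37 passed under every alternative and 13 failed under at least 1, with no change of sign. Whether the replicate numbers pair the libraries was not settled. Same-numbered WT and GSH libraries correlated at 0.48, -0.11 and 0.21 in their deviations. The value for WT 1 and GSH 1 (0.48) was the highest of all pairs, but WT 3 lay nearest GSH 2 (0.39). With 3 libraries a group, such correlations cannot exclude pairing. With the replicate number as a block, 3867 genes were called, and with a term for WT 3, GSH 2 and GSH 3, 3659. The share of called genes that were higher depends on scaling: 2533 higher and 2014 lower as deposited, 2167 and 2281 with median-of-ratios scaling, and 1884 and 2521 rescaled without mitochondrial genes, whose share of reads was 8.17 to 8.48% for WT libraries and 5.72 to 6.10% for GSH libraries. No paired analysis was possible for Cas9 against Ctrl because they share 1 number with values, the mitochondrial rescaling was not run there because that table lists 0 such genes, and calls stayed at 0 in each alternative run. Depth limits Egr2 in WT (4 to 9 reads).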
